A study of Homo sapiens with 16 samples.

Results

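The comparison is that of U-937 cells given all-trans retinoic acid (ATRA) together with Corin against U-937 cells given DMSO, the solvent. Its members are 4 of the 16 sequenced libraries of the series, taken by their labels, and all genes of the deposited count table. Of 60603 genes in the table, 17717 passed a filter on low counts and were tested. U-937 is an established human myeloid leukaemia line with monocyte-like features. Every group was collected after 24 h, and each agent was used at 0.1 µM. The 4 U-937 groups are DMSO, ATRA alone, Corin alone and both agents, with 2 libraries each. All share the same line, the same medium with fetal bovine serum, the plating density and a stranded total RNA kit. Each group is 1 line at 1 dose and 1 time, so the values describe that state and no course over time.

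ATRA is a ligand of the retinoic acid receptors, which sit with RXR partners on DNA, hold corepressors in the absence of ligand and recruit coactivators once ligand is bound. Corin is a bifunctional inhibitor that acts on the CoREST corepressor complex, where it blocks the deacetylases HDAC1 and HDAC2 as well as the demethylase LSD1, the product of KDM1A. In myeloid leukaemia cells, retinoic acid is known for driving maturation towards granulocyte-like or monocyte-like cells, a process in which phagocyte genes are switched on and cells leave the division cycle.

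Library totals ran from 28.4 to 37.6 M estimated counts, and the totals of the 4 libraries compared ran from 28.8 to 34.4 M. Levels are given in CPM (counts divided by the library total in M, scaled by the TMM method), always in the order replicate 1 and replicate 2. Fold changes are on the log2 scale, both agents minus DMSO, with their standard error (SE). Each adjusted p-value is from the quasi-likelihood F test of edgeR, adjusted by Benjamini and Hochberg's method over all 17717 genes, and a gene is called higher or lower when its adjusted p is under 0.05. The labels do not say whether the 2 libraries of a group came from separate cultures, so p-values measure the spread between these libraries, which may be technical. The RNA is from bulk cultures, where fewer cells of a type and less RNA per cell cannot be told apart. The line is marked by HOXA9 (57.7 and 53.7 CPM with DMSO) and HOXA10 (90.3 and 81.1 CPM), whereas RUNX1T1, the partner of the fusion in the other line of the series, had 1 count over the DMSO libraries and 1 with both agents. HOXA10 was at 89.0 and 90.1 CPM with both agents.

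With both agents, the level of most genes differed from DMSO. Of 17717 genes tested, 11570 were called (65.3%), 5860 of them higher (33.1%) and 5710 lower (32.2%). A test against a minimum fold of 2 (edgeR's glmTreat) still called 2153 genes higher (12.2%) and 1974 lower (11.1%). The median log2 fold change over all genes was 0.03, with quartiles of -0.71 and 0.80. TMM scaling sets the bulk of genes near 0, so this median and the near-even split are relative to the RNA of each library. The deposited counts held 0 ERCC spike-in entries, so no absolute scale was available. Because about 1 gene in 3 is called in each direction by the first test, a gene list is described below by how far its counts depart from 33.1% and 32.2% and by its median. Unless stated, the size given for a list is the number of its genes tested. A gene silent with DMSO was tested only where another group held counts. In lists with many genes near silence in DMSO, the tested members therefore lean towards genes that rose. Long noncoding RNAs leaned to the higher side, with 1042 of 3047 called higher and 504 lower (median 0.39). Among 12781 protein-coding genes 4399 were called higher and 4877 lower (median -0.04). In the authors' deposited table for the same comparison, 9622 genes had an adjusted p under 0.05, and 9467 of these were called here in the same direction and 0 in the opposite one.

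**Figure D1:**
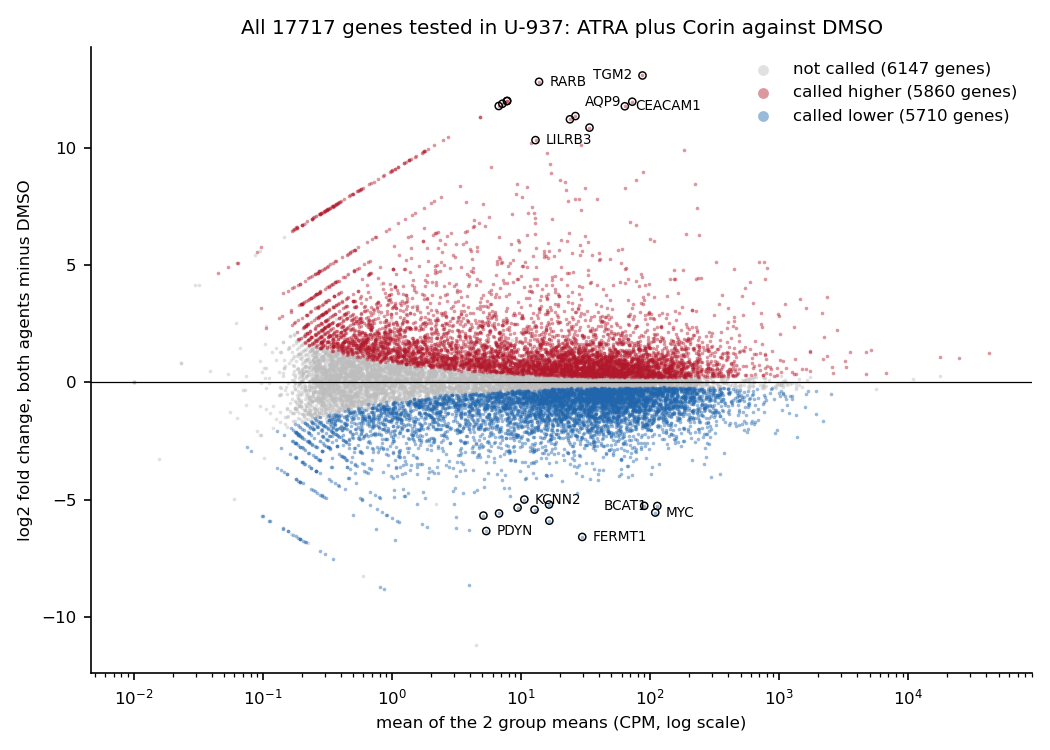
Log2 fold change of both agents against DMSO for each of the 17717 genes tested (vertical axis) against the mean of the 2 group means in CPM (horizontal axis, log scale). Red points are the 5860 genes called higher, blue the 5710 called lower and grey the 6147 not called; circles mark the 12 largest rises and 12 largest falls among well-expressed protein-coding genes, some of them named, and the rows of points at the upper and lower left are genes with few or no counts in one group.

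The makeup of the libraries moved with the treatment. Protein-coding genes held 88.1% and 89.6% of all counts in the DMSO libraries, 87.0% and 85.4% with ATRA, 88.2% and 88.7% with Corin, and 81.7% and 81.8% with both agents. The abundant small noncoding RNAs (RN7SL1 and RN7SL2 of the signal recognition particle, RN7SK, RPPH1, RMRP and SNORD3A) went the other way, from 8.04% and 7.01% with DMSO to 13.7% and 13.9% with both agents. RN7SL1, the most abundant of them, stood at 27600 and 22800 CPM with DMSO and 57000 and 61500 CPM with both agents (log2 fold change 1.23, SE 0.180, adjusted p = 2.08e-06), and RN7SK at 12400 and 10100 and at 23100 and 25100 CPM (log2 fold change 1.09, SE 0.167, adjusted p = 3.93e-06). SNORD3A was not called, at 15200 and 16700 CPM with DMSO and 17200 and 21000 CPM with both agents (log2 fold change 0.26, SE 0.15, adjusted p = 0.131). RN7SL1 and RN7SL2 are near-identical, so the division of reads between them is uncertain. The groups with both agents and with DMSO did not overlap in either share. A fit on the protein-coding genes alone, chosen after seeing the data, called 9473 of them, 4729 higher and 4744 lower.

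**Figure D2:**
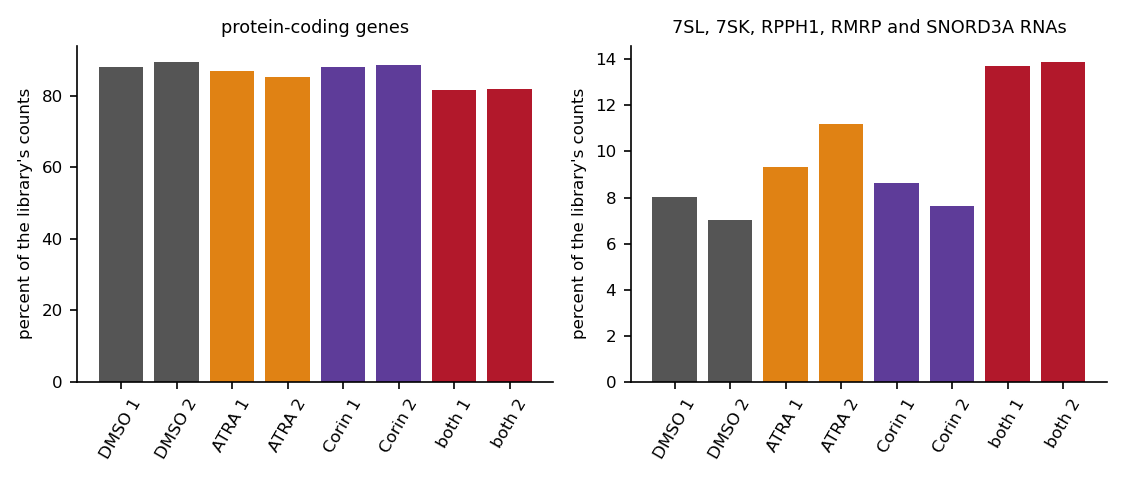
Percent of each library's counts that fell on protein-coding genes (left) and on the abundant small noncoding RNAs (right), 1 bar per U-937 library, axes from 0. Both libraries with ATRA plus Corin, at 81.7% and 81.8% on the left and 13.7% and 13.9% on the right, lie beyond the other 6.

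Genes known to respond to retinoic acid were higher wherever they could be tested. Of 17 genes of a list of known retinoic acid induced genes, 13 passed the filter and 2 had 0 counts in all 8 libraries. All 13 tested were called higher (13 of 13 against 33.1% of all genes; median 4.11). A gene silent with DMSO passed the filter only where another group held counts, so the 13 lean towards genes that rose. RARB, the retinoic acid receptor beta and itself a classical target of retinoic acid (ENSG00000077092.19; chromosome 3, 24687887 to 25597932, plus strand), had 0 counts in both DMSO libraries, 21.1 and 20.5 CPM with ATRA, 0 counts in both Corin libraries and 24.0 and 31.0 CPM with both agents. The libraries given ATRA, alone or with Corin, thus stood apart from those without it, and RARB was at least 558-fold higher with both agents than with DMSO, taking 3 counts over both libraries as the floor (adjusted p = 1.24e-16). Against ATRA alone its difference was 0.40 on the log2 scale (adjusted p = 0.0242). TGM2, a tissue transglutaminase (ENSG00000198959.12; chromosome 20, 38127385 to 38166578, minus strand), had 0 and 0.0339 CPM with DMSO, 80.3 and 78.3 with ATRA, 0.905 and 1.01 with Corin and 181 and 168 with both. Over the group its counts went from 1 to 10997, a ratio of 10700 (95% interval 1930 to 424000) that covers counting error only (adjusted p = 1.81e-21). It was also higher than with ATRA alone by 1.14 (adjusted p = 1.36e-09). CD38, an ectoenzyme of the cell surface, had 13.2 and 11.9 CPM with DMSO, 403 and 391 with ATRA, a mean of 14.8 with Corin and 323 and 365 with both (log2 fold change 4.78, SE 0.121, adjusted p = 1.22e-19), and against ATRA alone the call was not made (log2 difference -0.21, adjusted p = 0.0942). Of the 13 genes, 9 were called higher than with ATRA alone (22.5% of all genes were called higher and 24.8% lower in that comparison) and 13 higher than with Corin alone (29.9% higher and 30.6% lower over all genes).

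The promoter of RARB is shown because RARB had 0 counts in all 4 libraries without ATRA and because this promoter is known for a retinoic acid response element. The 250 bases before the RefSeq start site (chr3:25428013-25428262, plus strand, GRCh38.p14, sequence from RefSeq) hold 1 retinoic acid response element of the direct repeat type with a spacing of 5, which starts 53 bases before the start site and is in capitals.
RARB: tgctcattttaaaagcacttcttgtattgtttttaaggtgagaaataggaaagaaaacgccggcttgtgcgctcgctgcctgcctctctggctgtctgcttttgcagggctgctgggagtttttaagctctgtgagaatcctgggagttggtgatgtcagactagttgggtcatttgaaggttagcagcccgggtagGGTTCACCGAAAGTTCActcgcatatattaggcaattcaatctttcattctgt
Among 27303 RefSeq promoters of 300 bases (250 before to 50 after the start), searched on both strands, 22 (0.0806%) held this element. It was found in 1 of the 7 retinoic acid induced genes with a promoter in the table, in 4 of 3886 promoters of genes called higher (ATXN1L, BATF2, PRSS27 and RARB) and in 1 of 4179 of genes called lower (HROB). The direct repeat with a spacing of 2 was searched as well and was in 12 of the 27303 promoters (0.044%). It was in 0 of the 7 retinoic acid induced genes, in 1 of 3886 promoters of genes called higher (ZBED6) and in 1 of 4179 of genes called lower (SEMA4A). A match describes letters only, and elements outside these 300 bases were not searched.

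Genes that carry, oxidize and reduce retinoids changed in both directions, 6 of 10 higher and 3 lower (median 1.38). DHRS3, a retinal reductase, rose from 3.51 and 2.82 CPM to 204 and 214 CPM (log2 fold change 6.04, SE 0.159, adjusted p = 7.57e-18), and DHRS9, a retinol dehydrogenase, from 2.51 and 3.09 to 20.1 and 23.7 CPM. RDH11, the most abundant in DMSO, rose from 103 and 119 to 234 and 266 CPM (log2 fold change 1.18, SE 0.108). ALDH1A1, which makes retinoic acid, fell (log2 fold change -1.96, SE 0.347), as did RDH10 (log2 fold change -1.23, SE 0.140). CYP26A1, which breaks retinoic acid down, was not tested, with 3 counts over the DMSO libraries and 0 with both agents. Of 10 receptors and cofactors, 6 were called higher and 0 lower (median 0.56). Besides RARB, the coactivator NCOA3 rose from 59.4 and 65.4 to 308 and 336 CPM (log2 fold change 2.37, SE 0.103, adjusted p = 1.45e-15). RARA was at 11.6 and 9.33 CPM with DMSO and 18.0 and 16.7 with both agents (log2 fold change 0.73, SE 0.143), and the corepressor NCOR1 was not called (adjusted p = 0.0683), except higher with the GC trend removed (0.25, adjusted p = 0.0111) and in the fit on protein-coding genes alone (0.26, adjusted p = 0.012).

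Among genes of the CoREST complex and its recruiters, 3 of 15 were called higher and 8 lower (median -0.35). KDM1A, the LSD1 demethylase that Corin inhibits, stood at 249 and 267 CPM with DMSO, 163 and 156 with ATRA, 240 and 220 with Corin and 105 and 115 with both agents. The libraries with both agents were below all others, and KDM1A fell (log2 fold change -1.23, SE 0.100, adjusted p = 1.44e-10), also against ATRA alone (-0.53, adjusted p = 9.32e-05). HDAC2 fell from 205 and 233 to 102 and 117 CPM (2.00-fold, adjusted p = 8.8e-09), whereas HDAC1 rose from 163 and 173 to 213 and 230 CPM (log2 fold change 0.40, SE 0.100, adjusted p = 0.00119) and PHF21A, a histone reader of the complex, from 19.8 and 16.3 to 30.4 and 25.4 CPM (log2 fold change 0.63, SE 0.139). The list of genes commonly induced by histone deacetylase inhibitors was mixed, with 5 of 10 higher and 3 lower (median 0.26). CDKN1A and SYT11, a vesicle protein, rose (SYT11 from 2.13 and 1.32 to 21.4 and 21.0 CPM), TUBB3 fell from 2.72 and 2.71 to 0.828 and 1.31 CPM and CLU, a secreted chaperone, from 32.8 and 30.5 to 17.0 and 19.2 CPM.

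The 12 largest rises among called protein-coding genes that averaged 5 CPM or more in the 4 libraries held, besides RARB and TGM2, genes of several kinds. AQP9, a channel for water and glycerol, had 0.0313 and 0.0339 CPM with DMSO, 0.689 and 0.880 with ATRA, 4.36 and 4.02 with Corin and 135 and 156 with both agents. The libraries with both agents were far above all others, and the ratio of counts to DMSO was 4440 (95% interval 1230 to 36700). CEACAM1, an adhesion receptor, had 0.0313 and 0.0339 CPM with DMSO, 5.98 and 5.34 with ATRA, 0.665 and 0.490 with Corin and 127 and 127 with both agents, a ratio of 3900 (95% interval 1080 to 32200). GIMAP4, a GTPase of lymphocytes, had 0 counts with DMSO, 0.0276 and 0.0304 CPM with ATRA, 0.266 and 0.0980 with Corin and 15.1 and 16.2 with both, at least 319-fold above DMSO. ADGRE3, an adhesion receptor of myeloid cells, reached 49.3 and 55.9 CPM from 1 count over the DMSO group, a ratio of 3210 (95% interval 576 to 127000). The potassium channel gene KCNH4, the olfactory receptor gene OR5AN1 and the chemokine receptor gene CXCR5 were at least 319-fold, 299-fold and 274-fold higher, all from 0 counts with DMSO. DAAM2, a regulator of actin assembly, shows another pattern: it had 72.2 and 68.1 CPM with ATRA alone and 68.1 and 67.0 with both, with a difference of -0.05 (adjusted p = 0.709). The other 2 of the 12 are ARL14EPL (46.4 and 49.0 CPM with both agents) and LILRB3 (a mean of 25.8 CPM), and LILRB3 is uncertain because it shares reads with the similar gene LILRA6.

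The 12 largest falls included MYC, the transcription factor that drives growth and division, and the amino acid enzymes BCAT1 and PSAT1. FERMT1, an activator of integrins (chromosome 20, 6074845 to 6123214, minus strand), fell from 58.2 and 59.5 CPM to 0.385 and 0.859 CPM (log2 fold change -6.59, SE 0.192, adjusted p = 1.12e-18), the largest fall among well-expressed protein-coding genes. PDYN, which encodes the opioid peptide precursor prodynorphin, fell from 11.9 and 9.23 to 0.207 and 0.0344 CPM (log2 fold change -6.34, SE 0.344). BCAT1, which transaminates branched-chain amino acids, stood at 209 and 233 CPM with DMSO, 30.7 and 31.0 with ATRA, 108 and 96.2 with Corin and 5.47 and 5.98 with both agents (log2 fold change -5.27, SE 0.125, adjusted p = 3.58e-20). PSAT1, an enzyme of serine synthesis, stood at 173 and 177, 26.1 and 24.9, 103 and 82.5 and 3.91 and 5.22 CPM in the same order of groups (log2 fold change -5.27, SE 0.145, adjusted p = 1.12e-18). For both genes every library with both agents was below every other library, those with ATRA alone being next. EBF3, a transcription factor of the early B cell factor family, fell from 12.7 and 13.7 to 0.266 and 0.275 CPM, the calcium sensor NCS1 from 24.7 and 24.9 to 0.592 and 0.550 CPM and the potassium channel KCNN2 from 20.5 and 20.5 to 0.414 and 0.893 CPM. The remaining falls were FAM81A (-5.90 on the log2 scale), AK5 (-5.68), GPR153 (-5.34) and ALDH5A1 (-5.21).

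Some genes went from silence to expression. By a rule of at most 3 counts over the DMSO libraries and at least 1 CPM on average with both agents, 103 genes appeared, 65 of them protein-coding and 46 with 0 DMSO counts. Of the 103, 23 also reached 1 CPM with ATRA alone, 5 with Corin alone and 1 of these with each, so 76 did so in neither single-agent group. Some of the 76 lay not far below 1 CPM with 1 agent. OTOF stood at 0.985 and 0.784 CPM with Corin and 2.54 and 1.92 with both agents. LINC01303 stood at 0.634 and 0.668 CPM with ATRA and 1.39 and 1.13 with both agents. Its difference to ATRA alone was not called (adjusted p = 0.0582). TNFSF15, a cytokine of the TNF family, was at 0.138 and 0.304 CPM with ATRA, 0.239 and 0.294 with Corin and 28.7 and 35.1 with both, and VSIG4, a complement receptor of macrophages, at 8.63 and 8.13, 0.239 and 0.163 and 28.7 and 38.3 CPM. These examples were chosen here after their values were seen. The reverse rule found 25 genes, 22 of them protein-coding, and 24 of the 25 kept more than 3 counts with each single agent. Some lay only just above that limit with ATRA alone. GSG1 had 4 counts with ATRA and 3 with both agents (adjusted p = 0.857), and HRK, an activator of apoptosis, 10 and 2 (adjusted p = 0.0667). Others were called lower than with ATRA alone, such as MCIDAS (67 and 2 counts, adjusted p = 1.09e-06). RPL21P16 and PEDS1-UBE2V1 were not called against DMSO (adjusted p = 0.324 and 0.224). IGLL1, a surrogate light chain of B cell precursors, had 481 counts over the DMSO libraries and 1 with both agents. It fell by a ratio of 493 (95% interval 88.0 to 19500), and HRK went from 137 counts with DMSO to 2. TERT, the catalytic subunit of telomerase, fell from 92 counts to 1, but was already at 0.0276 and 0 CPM with ATRA alone. These names too were chosen after seeing the values, and rules on counts with no test describe only the ends of the range.

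**Figure D3:**
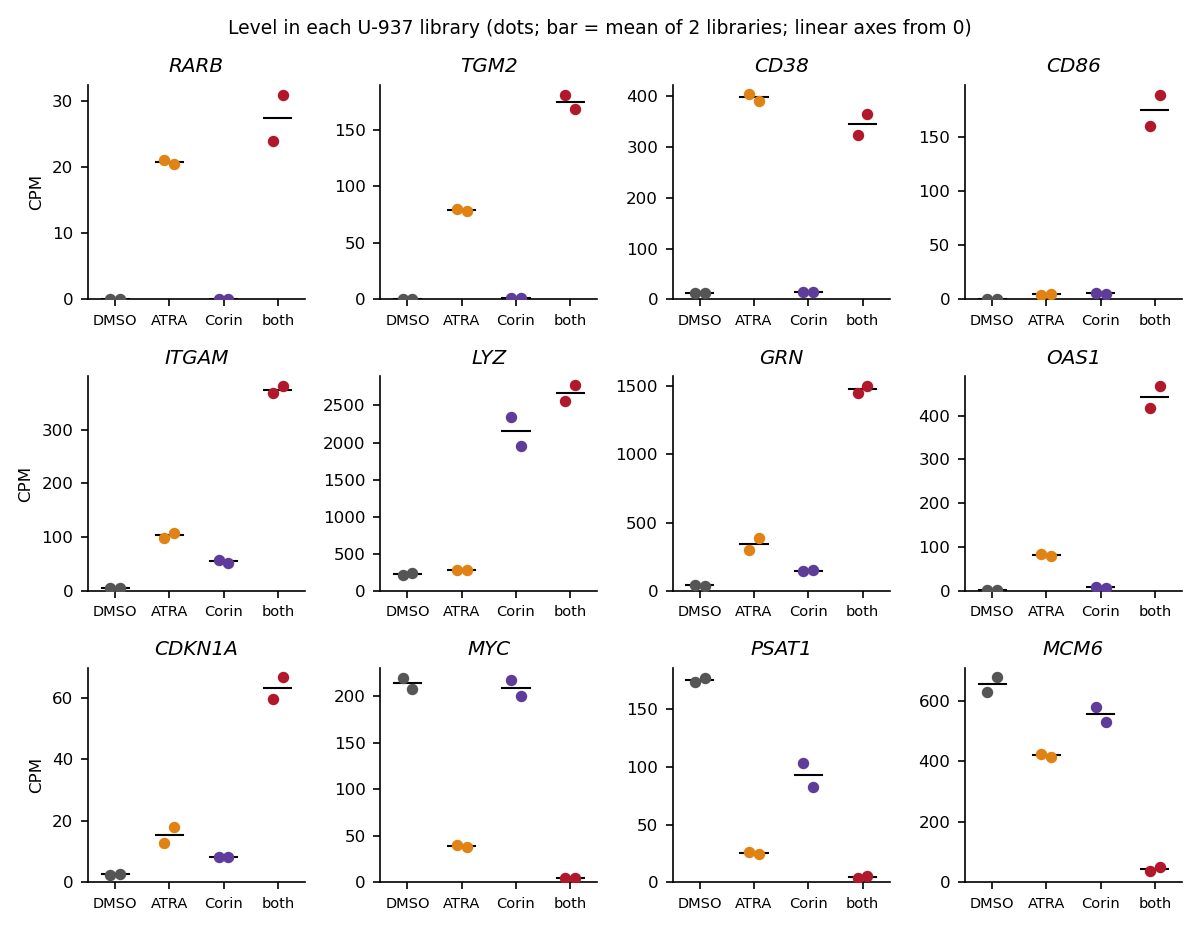
CPM in each of the 8 U-937 libraries for 12 genes, 1 dot per library and a bar at the mean of the 2, linear axes from 0. RARB and CD38 follow ATRA, LYZ follows Corin, and in CD86, ITGAM, GRN, OAS1 and CDKN1A the pair with both agents lies above all other libraries, while in MYC, PSAT1 and MCM6 it lies below them.

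Surface proteins of monocytes and macrophages rose as a group, with 17 of 20 tested genes called higher and 0 lower (median 2.46). CD86, a costimulatory ligand of T cells (chromosome 3, 122055362 to 122121139, plus strand), stood at 0.282 and 0.407 CPM with DMSO, 3.94 and 5.22 with ATRA, 5.85 and 5.26 with Corin and 160 and 189 with both agents, a 504-fold rise (log2 fold change 8.98, SE 0.201, adjusted p = 1.3e-20). Neither single agent brought it near that level, with differences of 5.25 to ATRA and 4.97 to Corin on the log2 scale (adjusted p = 3.43e-18 and 1.57e-18). CSF1R, the receptor for the macrophage growth factor CSF1, went from 0.689 and 0.916 to 31.5 and 31.2 CPM (log2 fold change 5.29, SE 0.186, adjusted p = 3.19e-17). CD36, a scavenger receptor, went from 26.4 and 33.5 to 796 and 927 CPM (log2 fold change 4.85, SE 0.136, adjusted p = 5.86e-19). CD163, the haemoglobin scavenger receptor of macrophages, had 0 counts with DMSO and 2.49 and 2.95 CPM with both agents, at least 55.3-fold higher, but stood at 3.86 and 3.36 CPM with Corin alone (difference -0.41, adjusted p = 0.224). The list was not uniform: CD14, the defining lipopolysaccharide coreceptor of blood monocytes, was not tested, at 6 counts over the DMSO libraries and 14 with both agents, and MRC1 had 6 and 0. CLEC12A, the member with the most DMSO counts, rose by 0.45 on the log2 scale.

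Transcription factors of the myeloid lineage split into 11 higher, 4 lower and 4 not called of 19 tested (median 1.00). CEBPE, a factor of late granulocyte maturation, rose from 3.07 and 3.36 to 29.0 and 31.2 CPM (log2 fold change 3.23, SE 0.162, adjusted p = 2.06e-14). SPI1 (PU.1), the general myeloid factor, rose from 16.1 and 11.7 to 28.6 and 27.1 CPM (log2 fold change 1.00, SE 0.143, adjusted p = 3.27e-06). IRF8 and CEBPA, which act in monocyte and granulocyte progenitors, fell, IRF8 from 111 and 106 to 62.3 and 70.7 CPM (log2 fold change -0.70, SE 0.101) and CEBPA from 134 and 131 to 96.1 and 110 CPM (log2 fold change -0.36, SE 0.104). BATF3, a factor of dendritic cells, fell by 1.79. EGR1, an immediate early factor, had a log2 fold change of -0.89 whose call was lost with DESeq2 (adjusted p = 0.0805), without DMSO replicate 1 (0.0736) and without replicate 2 of both agents (-0.68, adjusted p = 0.115).

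Of 13 integrins and activators 12 were called higher and 1, FERMT1, lower (median 2.09). ITGAM (CD11b), the alpha chain of complement receptor 3, stood at 4.82 and 4.58 CPM with DMSO, 99.3 and 108 with ATRA, 57.6 and 52.3 with Corin and 368 and 381 with both agents (log2 fold change 6.32, SE 0.128, adjusted p = 2.61e-21). The 4 groups did not overlap, with both agents highest, ATRA next and then Corin. ITGB7 rose from 0.188 and 0.271 to 25.4 and 25.6 CPM, and ITGA6, a laminin receptor chain, from 333 and 356 to 4020 and 4620 CPM (log2 fold change 3.65, SE 0.131, adjusted p = 4.78e-17). ITGA4, the member with the most DMSO counts, had 658 and 676 CPM with DMSO and 781 and 871 with both agents (log2 fold change 0.31, SE 0.106, adjusted p = 0.0141), a call lost without DMSO replicate 1 (adjusted p = 0.102), DMSO replicate 2 (0.0618) or replicate 2 of both agents (0.22, adjusted p = 0.148). Of the phagocyte oxidase, which makes superoxide, 6 of 7 genes were called higher (median 1.38). CYBB, its catalytic subunit, rose from 17.4 and 18.3 to 567 and 699 CPM (log2 fold change 5.15, SE 0.131, adjusted p = 1.22e-19). NCF1 rose by 5.45, a value that is uncertain because near-identical pseudogenes share its reads, and RAC1 was not called (0.07, adjusted p = 0.586).

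Granule genes did not move as 1 class. Of 10 genes of azurophil granules, which are made early in myeloid life, and lysozyme, 5 were called higher and 4 lower (median 0.33). The serine proteases fell, ELANE from 76.5 and 54.5 to 23.0 and 22.2 CPM (log2 fold change -1.54, SE 0.185, adjusted p = 4.86e-05), CTSG from 713 and 658 to 240 and 286 CPM (log2 fold change -1.38, SE 0.125, adjusted p = 8.77e-10) and PRTN3 from 48.5 and 35.6 to 18.3 and 19.1 CPM (log2 fold change -1.17, SE 0.130, adjusted p = 1.28e-07). With ATRA alone, both libraries stood above DMSO for ELANE and PRTN3, at 97.0 and 126 and at 124 and 133 CPM. CST7, an inhibitor of lysosomal proteases, fell from 382 and 375 to 63.3 and 67.9 CPM. BPI, a bactericidal protein, rose from 0.501 and 0.170 to 72.2 and 82.7 CPM (log2 fold change 7.81, SE 0.218, adjusted p = 6.49e-19). LYZ, lysozyme, stood at 216 and 244 CPM with DMSO, 285 and 278 with ATRA, 2350 and 1960 with Corin and 2560 and 2770 with both agents (log2 fold change 3.54, SE 0.133, adjusted p = 1.13e-16), so the libraries with Corin, alone or combined, held the high values, and both agents exceeded Corin alone by 0.31 (adjusted p = 0.0316). MPO had 12 counts over the DMSO libraries and 10 with both agents and was not tested. Of 12 genes of specific and gelatinase granules, which are made later, 6 passed the filter and 2 had 0 counts in all 8 libraries. Of the 6 tested, 5 were called higher and 0 lower (median 3.61). Here too the filter makes the tested genes lean towards those that rose. Among them were CAMP, the cathelicidin (0.376 and 0.475 to 7.34 and 7.39 CPM), MMP8 (4.84) and CHI3L1 (17.5 and 14.5 to 162 and 160 CPM).

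Receptors that recognize microbes and opsonized particles rose with few exceptions. All 11 tested complement genes were called higher (median 3.90), and C3, the central component, went from 1.53 and 0.848 CPM with DMSO through 7.31 and 8.16 with ATRA and 26.5 and 25.3 with Corin to 139 and 139 with both agents (log2 fold change 6.85, SE 0.167, adjusted p = 6.18e-20). C5AR1, the receptor for C5a, went from 1.32 and 1.09 to 56.9 and 58.8 CPM (log2 fold change 5.58, SE 0.163). Of 8 genes of Fc receptors and their signalling chain 7 were tested, and all 7 were called higher (median 2.93). FCER1G, the shared signalling chain, rose from 31.0 and 37.6 to 256 and 303 CPM. FCGR2B rose from 14.2 and 14.9 to 160 and 167 CPM, but it is similar to FCGR2A and therefore uncertain. FCRLA had 2 counts over the DMSO libraries, 200 with Corin alone and 166 with both agents. Of 14 Toll-like receptors and adaptors 11 were called higher and 0 lower (median 2.14), with TLR8, a sensor of RNA, going from 0.0626 and 0.102 to 18.4 and 22.1 CPM and TLR1 from 0.470 and 0.645 to 41.3 and 50.6 CPM. All 10 leukocyte immunoglobulin-like receptors were called higher (median 3.43). LILRA5, an activating member, rose from 0.501 and 0.238 CPM with DMSO to 39.0 and 44.6 with ATRA alone and 343 and 384 with both agents (log2 fold change 9.91, SE 0.195, adjusted p = 2.6e-21). The members of this family resemble each other, so reads may be divided between them.

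**Figure D4:**
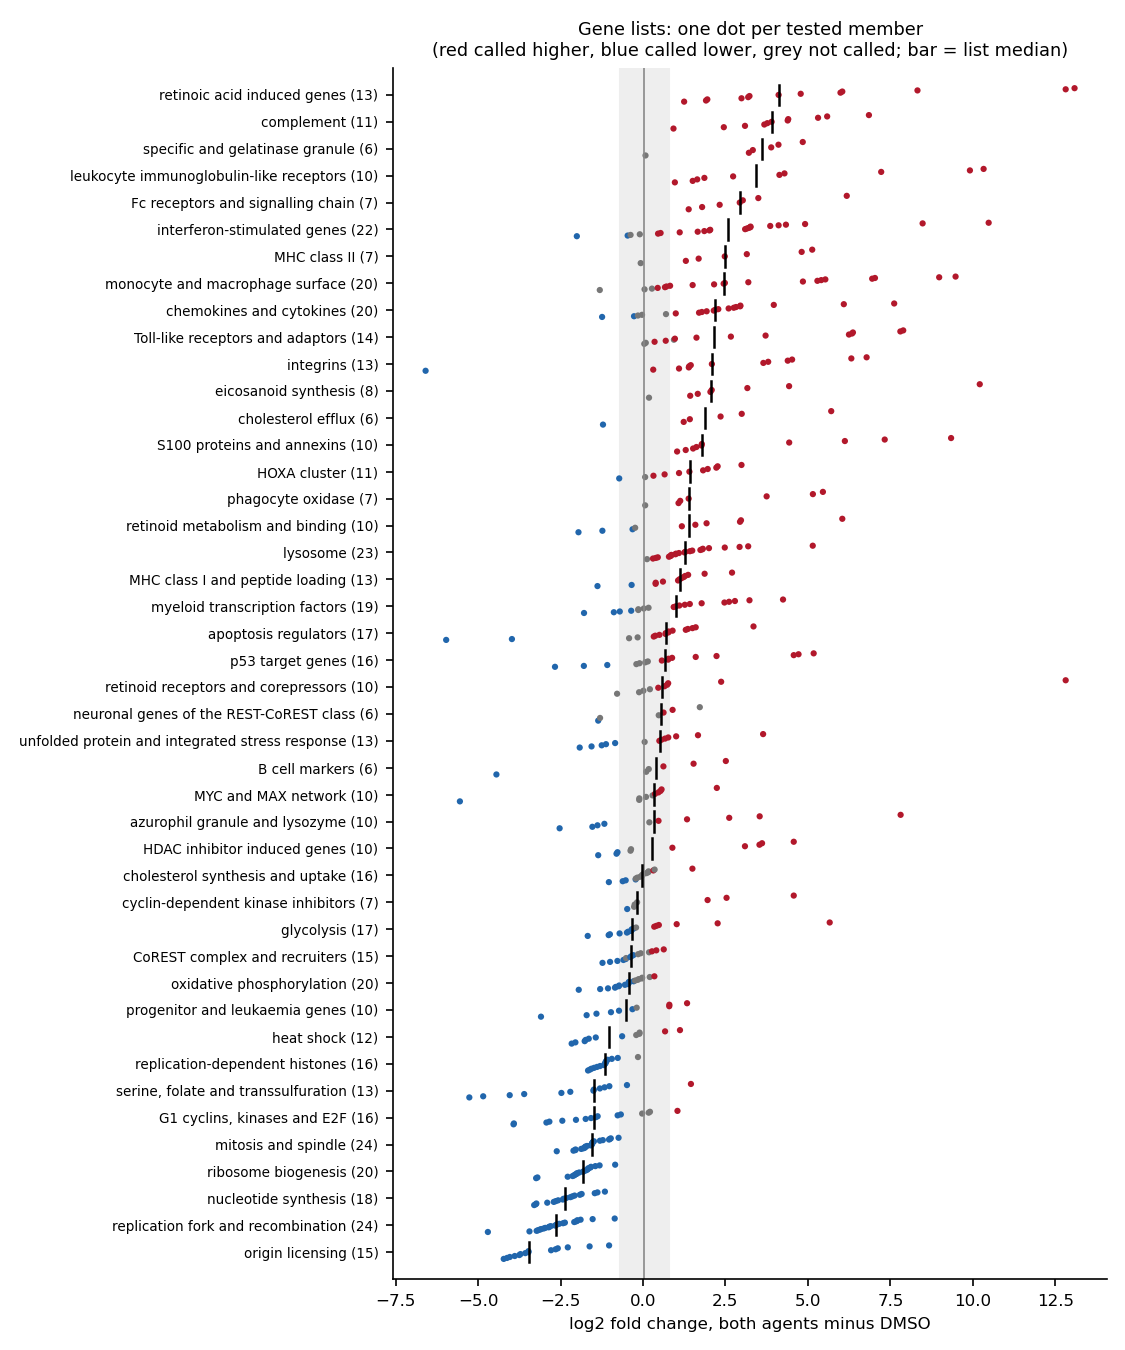
Log2 fold change of both agents against DMSO for each tested member of the gene lists with at least 5 tested members (1 dot per gene, red called higher, blue called lower, grey not called), with a bar at the list's median and the number tested in brackets. The grey band spans the quartiles of all 17717 genes (-0.71 to 0.80); the medians of most lists of phagocyte genes lie to its right (that of azurophil granules and lysozyme, 0.33, lies inside it), those of the lists of replication, nucleotide synthesis and ribosome biogenesis to its left, and dots of genes with 0 counts in one group are fitted values, not bounds.

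Secreted and lysosomal products followed. All 10 S100 proteins and annexins were called higher (median 1.78), S100A8 from 0.438 and 0.271 to 52.6 and 63.7 CPM (log2 fold change 7.33, SE 0.230, adjusted p = 2.74e-17) and S100A9, its partner in calprotectin, from 2.57 and 3.12 to 191 and 204 CPM (log2 fold change 6.12, SE 0.148, adjusted p = 5.21e-20). ANXA2, which binds membranes, stood at 1200 and 1030 CPM with Corin alone and 916 and 1090 with both. Of 23 lysosomal genes 22 were called higher and 0 lower (median 1.26). GRN, the progranulin gene, stood at 46.2 and 37.2 CPM with DMSO, 303 and 388 with ATRA, 146 and 150 with Corin and 1450 and 1500 with both agents (log2 fold change 5.14, SE 0.147, adjusted p = 1.24e-18). CTSD, a lysosomal aspartic protease, stood at 367 and 274, 2630 and 3010, 552 and 498 and 3140 and 2710 CPM in the same order, high wherever ATRA was present (difference to ATRA alone 0.05, adjusted p = 0.791). Of 20 tested chemokines, cytokines and their receptors 15 were called higher and 2 lower (median 2.17). CCR2, the receptor by which monocytes follow CCL2, rose from 0.720 and 0.441 to 35.8 and 44.4 CPM (log2 fold change 6.09, SE 0.204, adjusted p = 1.49e-17), CCR1 from 4.57 and 5.84 to 75.8 and 86.4 CPM and CXCR4 from 158 and 174 to 1190 and 1360 CPM (log2 fold change 2.94, SE 0.121, adjusted p = 5.45e-16). The chemokine CCL5 fell from 65.5 and 70.3 to 27.1 and 30.4 CPM (log2 fold change -1.24, SE 0.112). CCL2, a monocyte attractant, had 3.29 and 6.04 CPM with DMSO, 0.910 and 1.03 with ATRA, 49.8 and 46.6 with Corin and 4.11 and 4.23 with both agents. Its level with both agents was not called against DMSO (adjusted p = 0.547), and against Corin alone its log2 difference was -3.53 (adjusted p = 2.07e-10). In eicosanoid synthesis 7 of 8 tested genes were called higher (median 2.06). Among them were ALOX5AP, the helper of 5-lipoxygenase (21.7 and 22.5 to 435 and 518 CPM), and PTGES, a prostaglandin E synthase (1 count with DMSO and 1489 with both agents).

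Most of the antigen presentation genes that could be tested were called higher, in both classes. In class I, 11 of 13 genes were called higher and 2 lower (median 1.11). B2M, the light chain of class I molecules, rose from 985 and 1030 to 2270 and 2610 CPM (log2 fold change 1.27, SE 0.124, adjusted p = 3.16e-09) and HLA-E from 81.8 and 76.5 to 279 and 299 CPM, a value that can be shared with other class I genes, whereas the peptide transporter gene TAP2 fell from 61.9 and 58.1 to 22.5 and 23.6 CPM (log2 fold change -1.38, SE 0.103, adjusted p = 2.7e-11). In class II, 7 of 11 listed genes were tested and 6 of these were called higher (median 2.48). They were led by HLA-DMB (0.313 and 0.475 to 14.1 and 13.5 CPM) and HLA-DMA (2.54 and 1.97 to 61.2 and 65.7 CPM), which load peptides. CIITA, the master activator of class II genes, was the exception, at 6.58 and 5.26 CPM with DMSO, 0.800 and 0.455 with ATRA, 16.5 and 16.6 with Corin and 6.57 and 4.67 with both agents (adjusted p = 0.771). It was thus below its level with Corin alone (-1.55, adjusted p = 2.09e-07).

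Of 22 tested interferon-stimulated genes 18 were called higher and 2 lower (median 2.57). OAS1, which makes the second messenger of the RNase L pathway, stood at 1.16 and 1.32 CPM with DMSO, 85.2 and 80.2 with ATRA, 8.73 and 7.71 with Corin and 418 and 467 with both agents, 356-fold above DMSO (log2 fold change 8.48, SE 0.153, adjusted p = 1.19e-21). IFI6 rose from 7.45 and 7.33 to 144 and 154 CPM (log2 fold change 4.33, SE 0.124, adjusted p = 8.15e-19), and GBP1, a GTPase against intracellular microbes, from 0 to 342 counts over the group, at least 111-fold. MX1, a classical interferon-stimulated gene, was not called, at 2.51 and 2.00 CPM with DMSO and 1.92 and 2.30 with both agents (adjusted p = 0.751), and USP18, which dampens interferon signalling, fell from 8.49 and 9.20 to 2.52 and 1.86 CPM (log2 fold change -2.01, SE 0.203, adjusted p = 6.26e-09).

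The largest one-sided falls were in genes of growth and division. MYC (ENSG00000136997.19; chromosome 8, 127735434 to 127742951, plus strand) stood at 220 and 208 CPM with DMSO, 40.0 and 38.3 with ATRA, 217 and 200 with Corin and 4.41 and 4.71 with both agents. The Corin libraries overlapped those with DMSO, the ATRA libraries lay below them and those with both agents below all others. The fall was 46.9-fold (log2 fold change -5.55, SE 0.123, adjusted p = 1.19e-20). Against ATRA alone the difference was -3.10 (adjusted p = 8.4e-16). Its partner and antagonist genes did not fall with it: of 10 genes in the list 5 were called higher and only MYC lower (median 0.33), with the antagonist MXD4 rising from 5.67 and 5.33 to 26.5 and 25.3 CPM (log2 fold change 2.24, SE 0.141, adjusted p = 1.35e-12). Among the cyclins, kinases and E2F genes of G1, 1 of 16 was called higher and 12 lower (median -1.50). CCND2, cyclin D2, fell from 188 and 191 to 12.8 and 12.1 CPM (log2 fold change -3.93, SE 0.110, adjusted p = 5.82e-19), CDC25A, a phosphatase that activates kinases, from 103 and 121 to 7.49 and 7.35 CPM (log2 fold change -3.92, SE 0.123, adjusted p = 4.03e-18) and CDK6 from 816 and 882 to 202 and 213 CPM (log2 fold change -2.03, SE 0.108, adjusted p = 5.56e-14). E2F1 fell by 2.84, and E2F2 was the member that rose (1.04). Of 7 inhibitors of cyclin-dependent kinases 3 were called higher and 1, CDKN2A, lower (median -0.18), so the list did not rise as a whole. CDKN1A (p21) stood at 2.51 and 2.82 CPM with DMSO, 12.7 and 17.9 with ATRA, 8.22 and 8.29 with Corin and 59.7 and 66.6 with both agents (log2 fold change 4.57, SE 0.165, adjusted p = 1.57e-16), and CDKN2B (p15) rose from 2.22 and 2.27 to 13.6 and 12.5 CPM (log2 fold change 2.53, SE 0.194, adjusted p = 4.88e-11). CDKN1B (p27), the most abundant of them in DMSO counts, was not called (adjusted p = 0.104), except lower with library totals (-0.30, adjusted p = 0.00352).

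All 15 genes that license replication origins were called lower (15 of 15 against 32.2% of all genes; median -3.47). MCM6, a subunit of the replicative helicase (chromosome 2, 135839626 to 135876443, minus strand), stood at 630 and 678 CPM with DMSO, 424 and 415 with ATRA, 579 and 531 with Corin and 39.0 and 49.3 with both agents. The ATRA and Corin libraries lay below those with DMSO, and the pair with both agents lay far below either, 14.8-fold below DMSO (log2 fold change -3.89, SE 0.127, adjusted p = 9.83e-18). MCM7 fell from 482 and 476 to 40.7 and 45.6 CPM (log2 fold change -3.47, SE 0.118, adjusted p = 1.84e-17), CDC45, which joins the helicase, from 39.8 and 38.6 to 1.60 and 2.65 CPM (log2 fold change -4.22, SE 0.161, adjusted p = 1.39e-16) and CDC6, which loads it, from 60.9 and 67.5 to 2.99 and 4.43 CPM (log2 fold change -4.12, SE 0.145, adjusted p = 3.19e-17). All 15 were also called lower than with ATRA alone (median -3.17) and lower than with Corin alone (median -3.34).

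The upstream sequences of MCM6 and MCM7 are shown because the licensing list had the lowest median of the lists with 5 or more tested genes and its promoters are known for sites of E2F, the factor that drives S-phase genes. The letters searched were TTTGGCGC and TTTCGCGC on both strands, and copies on opposite strands can overlap, as in TTTGGCGCGAAA. The sequences are the 250 bases before the RefSeq start site on GRCh38.p14, from RefSeq, read 5′ to 3′ on the gene's strand, with the sites in capitals. They are chr2:135876444-135876693 (minus strand) for MCM6, with sites 152, 148, 90 and 86 bases before the start, and chr7:100101398-100101647 (minus strand) for MCM7, with 1 site 9 bases before the start.
MCM6: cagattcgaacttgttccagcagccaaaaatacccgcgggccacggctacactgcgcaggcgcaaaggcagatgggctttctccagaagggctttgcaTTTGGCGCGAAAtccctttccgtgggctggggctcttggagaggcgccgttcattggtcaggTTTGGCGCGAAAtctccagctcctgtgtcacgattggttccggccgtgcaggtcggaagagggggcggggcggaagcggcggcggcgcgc
MCM7: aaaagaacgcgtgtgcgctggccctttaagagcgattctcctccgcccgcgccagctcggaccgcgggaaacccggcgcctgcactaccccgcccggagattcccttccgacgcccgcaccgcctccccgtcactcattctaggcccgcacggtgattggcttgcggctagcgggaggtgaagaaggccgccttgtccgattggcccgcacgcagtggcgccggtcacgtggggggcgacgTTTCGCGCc
Such a site was in 322 of all 27303 promoters (1.18%) and in 236 of the 11205 of genes tested (2.11%). It was in 130 of 4179 promoters of genes called lower (3.11%) and 59 of 3886 of genes called higher (1.52%). Beyond a fold of 2, the shares were 68 of 1418 lower genes (4.8%) and 10 of 1321 higher genes (0.757%). In the licensing list 5 of 13 promoters held it (38.5%; CDC6, MCM2, MCM3, MCM6 and MCM7), and in the replication fork list 6 of 22 (27.3%). The lists of nucleotide synthesis (0 of 15) and ribosome biogenesis (0 of 16) held none in this window, although all their genes fell. These shares are descriptions, with no test, and say nothing of binding in these cells.

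Further lists of the division cycle were called lower in full. All 24 genes of the replication fork and recombination were called lower (median -2.65). GINS2, a helicase cofactor, fell from 51.2 and 53.4 to 2.04 and 1.96 CPM (log2 fold change -4.70, SE 0.139, adjusted p = 1.37e-18), and PCNA, the sliding clamp, from 457 and 491 to 70.0 and 85.8 CPM (log2 fold change -2.61, SE 0.119, adjusted p = 3.55e-15). All 18 genes of nucleotide synthesis were called lower (median -2.37). Among them TYMS, which makes thymidylate, fell from 144 and 139 to 14.4 and 15.3 CPM (log2 fold change -3.25, SE 0.105, adjusted p = 7.77e-18), PAICS, of purine synthesis, from 371 and 393 to 36.5 and 41.1 CPM (log2 fold change -3.30, SE 0.111, adjusted p = 1.68e-17) and IMPDH2, of guanine nucleotide synthesis, from 392 and 395 to 66.0 and 79.9 CPM (log2 fold change -2.43, SE 0.117, adjusted p = 9.01e-15). All 24 genes of mitosis and the spindle were called lower, by less (median -1.56), from MAD2L1, a checkpoint protein (-2.62), to BUB1, a checkpoint kinase (-0.74). MKI67, the proliferation marker, stood at 905 and 921 CPM with DMSO, 1150 and 1070 with ATRA, 757 and 902 with Corin and 199 and 224 with both agents (log2 fold change -2.11, SE 0.120, adjusted p = 1.85e-13), so only the combined libraries were far below DMSO. Of 16 replication-dependent histone genes 15 were called lower (median -1.15), and against ATRA alone the median was -2.08. H1-2, a linker histone, stood at 322 and 330 CPM with DMSO, 496 and 588 with ATRA and 161 and 177 with both agents. All members of the 4 lists of the fork, nucleotide synthesis, mitosis and ribosome biogenesis were also called lower than with each single agent.

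Ribosome biogenesis fell in all 20 genes listed (median -1.81). BOP1, a factor for the large subunit, fell from 31.5 and 24.7 to 2.96 and 2.99 CPM (log2 fold change -3.24, SE 0.165, adjusted p = 3.1e-14), NOLC1, a nucleolar phosphoprotein, from 463 and 505 to 49.3 and 56.0 CPM (log2 fold change -3.20, SE 0.113, adjusted p = 3.19e-17) and NPM1, the abundant nucleolar chaperone, from 1620 and 1750 to 604 and 750 CPM (log2 fold change -1.32, SE 0.128, adjusted p = 3.05e-09). For this list the difference to ATRA alone (median -1.02) was smaller than that to Corin alone (median -1.73), and NOLC1 was at 168 and 163 CPM with ATRA and 486 and 450 CPM with Corin.

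**Figure D5:**
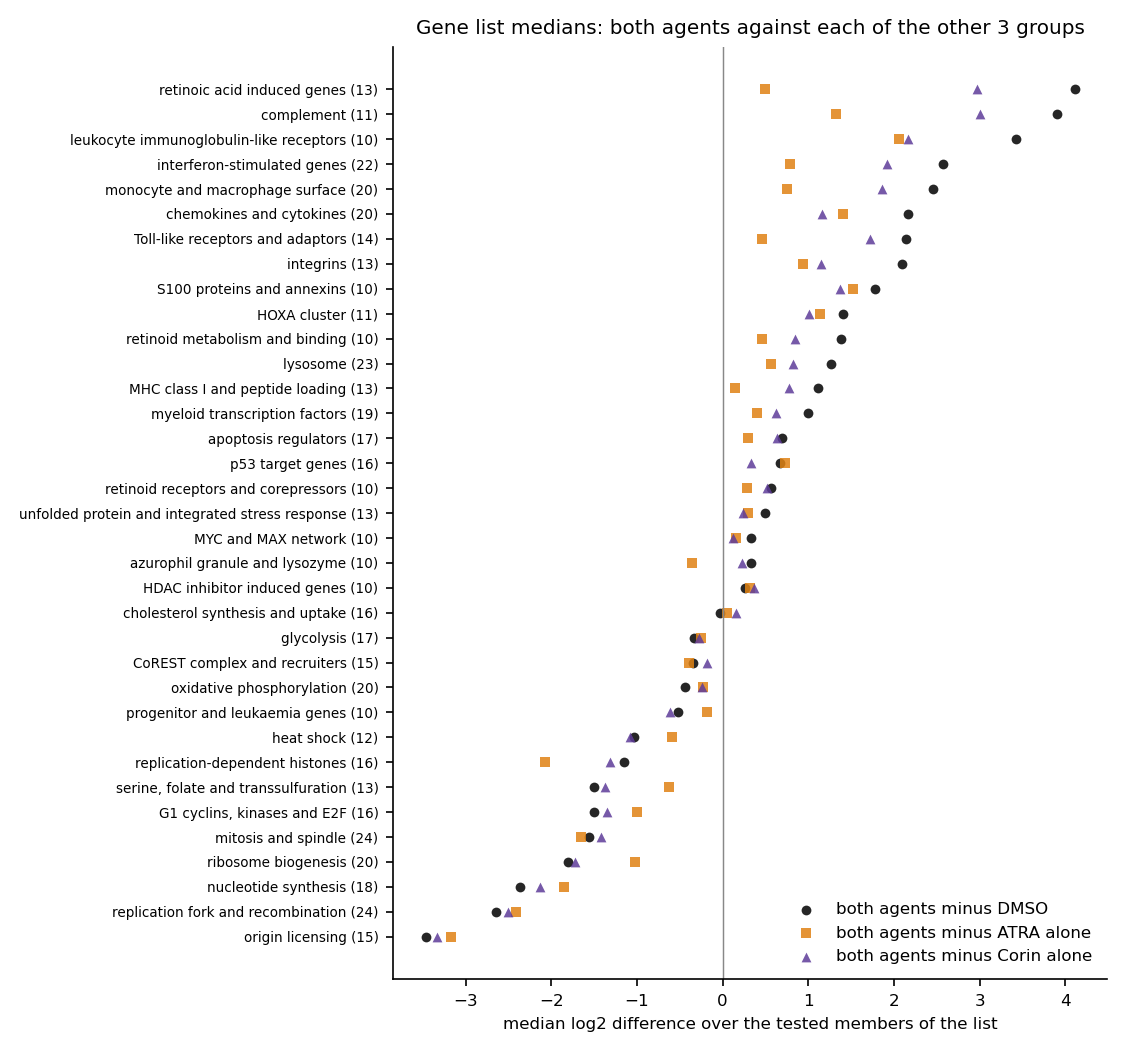
Median log2 difference over the tested members of each gene list with at least 10 tested members (number in brackets), for both agents against DMSO (black circles), ATRA alone (orange squares) and Corin alone (purple triangles). The 3 contrasts share the libraries with both agents, so they are not independent; the median of retinoic acid induced genes is 4.11 against DMSO and 0.49 against ATRA alone, and replication lists lie far below all 3 references.

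Progenitor and leukaemia genes were mixed, with 3 of 10 called higher and 6 lower (median -0.52). BMI1, a polycomb protein of self-renewal, fell from 766 and 849 to 296 and 311 CPM (log2 fold change -1.41, SE 0.107, adjusted p = 3.66e-11), MYB from 627 and 643 to 315 and 332 CPM (log2 fold change -0.97, SE 0.104, adjusted p = 1.59e-08) and ERG from 6.01 and 5.97 to 0.740 and 0.653 CPM (log2 fold change -3.09, SE 0.275, adjusted p = 6.45e-10). MEIS1, a cofactor of HOX proteins in leukaemia, rose from 253 and 246 to 421 and 447 CPM (log2 fold change 0.80, SE 0.0995, adjusted p = 1.97e-07) and SOX4 from 42.7 and 42.2 to 106 and 108 CPM (log2 fold change 1.33, SE 0.0957, adjusted p = 1.43e-11). Of the 11 HOXA genes 9 were called higher and 1 lower (median 1.41). HOXA13 was the member that fell, from 115 and 105 to 61.6 and 71.9 CPM (log2 fold change -0.72, SE 0.106, adjusted p = 2.15e-06).

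Of 13 genes of serine synthesis, folate and transsulfuration 12 were called lower and 1 higher (median -1.50). PHGDH, the first enzyme of serine synthesis, fell from 195 and 185 to 13.3 and 18.1 CPM (log2 fold change -3.60, SE 0.132, adjusted p = 1.25e-15) and MTHFD1L, of mitochondrial folate metabolism, from 123 and 130 to 6.86 and 8.49 CPM (log2 fold change -4.04, SE 0.120, adjusted p = 1.5e-18). CBS, of transsulfuration, stood at 17.0 and 14.4 CPM with DMSO, 0.772 and 0.516 with ATRA and 0.473 and 0.618 with both agents (log2 fold change -4.85, SE 0.238, adjusted p = 1.27e-14), and its difference to ATRA alone was not called (-0.26, adjusted p = 0.541). Glycolysis split into 6 higher and 10 lower of 17 (median -0.34). HK3, a hexokinase of myeloid cells, rose from 2.66 and 1.70 CPM with DMSO to 83.4 and 95.1 with ATRA and 117 and 105 with both agents (log2 fold change 5.66, SE 0.184, adjusted p = 6.54e-14), whereas LDHA, lactate dehydrogenase, fell from 554 and 612 to 168 and 196 CPM (log2 fold change -1.68, SE 0.111, adjusted p = 3.36e-12). In oxidative phosphorylation 13 of 20 genes were called lower and 1 higher, by small amounts (median -0.44), with ATP5MC1 lowest (-1.95). Cholesterol synthesis and uptake had few calls, 2 of 16 higher and 4 lower (median -0.03). INSIG1, a brake on sterol synthesis, fell by 1.04, and 7 genes of this list were called lower with library totals in place of TMM. Of 6 genes of cholesterol efflux 5 were called higher (median 1.88), and ABCA1, the exporter, went from 0.125 and 0.170 to 7.25 and 8.45 CPM (log2 fold change 5.71, SE 0.346, adjusted p = 5.6e-13), while SCARB1 fell by 1.21.

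Of 17 apoptosis regulators 13 were called higher and 2 lower (median 0.69). BCL2, the survival protein, stood at 102 and 115 CPM with DMSO, 41.9 and 41.5 with ATRA, 91.0 and 103 with Corin and 7.43 and 6.32 with both agents (log2 fold change -3.98, SE 0.124, adjusted p = 3.6e-18), the lowest pair being that with both. BMF, which opposes it, rose from 14.2 and 12.1 to 134 and 133 CPM (log2 fold change 3.35, SE 0.117, adjusted p = 2.73e-17), and BBC3 (PUMA) from 1.72 and 1.49 to 4.91 and 4.84 CPM (log2 fold change 1.60, SE 0.258). HRK, which favours cell death, fell as given above. MCL1, a survival gene and the most abundant of the list in DMSO counts, rose from 196 and 234 to 320 and 373 CPM (log2 fold change 0.69, SE 0.109, adjusted p = 6.88e-06) and BCL2A1, another survival gene, from 35.3 and 40.6 to 86.4 and 100 CPM (log2 fold change 1.30, SE 0.110, adjusted p = 3.08e-10). Of 16 p53 target genes 9 were called higher, TP53INP1 and CDKN1A among them, and 3 lower (median 0.67). The exonuclease gene AEN was among the latter and fell by 2.67. In the unfolded protein and integrated stress response 7 of 13 were called higher and 5 lower. DDIT4, an inhibitor of mTORC1 signalling, rose from 14.5 and 11.5 to 151 and 174 CPM (log2 fold change 3.64, SE 0.140, adjusted p = 2.63e-14), while ATF4 fell from 339 and 358 to 140 and 153 CPM (log2 fold change -1.25, SE 0.108, adjusted p = 4.22e-10) and its target ASNS by 1.56. Of 12 heat shock genes 7 were called lower and 2 higher (median -1.03), including HSPD1, the mitochondrial chaperonin (1440 and 1560 to 302 and 366 CPM), and HSPA8, the constitutive chaperone (1360 and 1720 to 337 and 409 CPM). HSPA1A, the inducible member, rose by 1.12, but its reads can be shared with HSPA1B.

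Measured per length, in TPM from the authors' files, the 10 largest gains among called protein-coding genes included the following. FTL, the ferritin light chain, went from a mean of 2620 to 4500 TPM, TMSB4X, an actin-binding peptide, from 3050 to 4750 TPM and LYZ from 186 to 1530 TPM. SAT1, which breaks down polyamines, rose from 65.0 to 891 TPM, or 58.8 and 58.1 to 1030 and 1210 CPM (log2 fold change 4.27, SE 0.122, adjusted p = 8.14e-19). RPS27, a ribosomal protein, rose from 2700 to 3650 TPM (687 and 705 to 1170 and 1490 CPM; log2 fold change 0.93, SE 0.130, adjusted p = 1.16e-06). Among the 10 largest losses were the ribosomal protein gene RPL4, from 3370 to 1730 TPM, PABPC1, which binds the tails of mRNAs, from 1460 to 420 TPM, HSP90AB1, a chaperone, from 1310 to 298 TPM, GLO1, which removes methylglyoxal, from 1420 to 399 TPM and the tubulin gene TUBA1B from 1380 to 470 TPM. TPM sums to the same total in each library and the share of protein-coding genes in it went from 52.0% and 54.5% with DMSO to 38.4% and 38.2% with both agents, so a TPM value can fall with no change in CPM. RPL4 fell in CPM by less (2900 and 2930 to 1920 and 2260 CPM; log2 fold change -0.48, SE 0.130, adjusted p = 0.00250), and reads of ribosomal protein genes can be shared with their pseudogenes. Among called long noncoding RNAs with a gene symbol that averaged 5 CPM or more in the 4 libraries, the largest rises were those of LINC02384 (0 and 0.136 to 33.4 and 34.1 CPM; log2 fold change 8.94, SE 0.328, adjusted p = 5.95e-17), PCAT18 (6.25) and ITGB2-AS1 (5.11). The largest falls under the same limit were those of HELLPAR (-3.12), CCDC26, which lies downstream of MYC on the same chromosome (23.4 and 29.4 to 3.99 and 3.92 CPM; log2 fold change -2.73, SE 0.148, adjusted p = 7.62e-14), and ENTPD1-AS1 (-2.69). CCDC26 was lower still with ATRA alone, at 1.82 and 1.91 CPM (both agents minus ATRA 1.08 on the log2 scale, adjusted p = 3.07e-05). Use of strand in the counting is not stated, so antisense genes cannot be told from their partners.

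Of 15 erythroid and megakaryocyte markers 4 could be tested, 1 called higher and 2 lower, and the globin genes HBA1, HBB and HBG1 had 0 counts in both groups. ITGA2B, the platelet integrin chain, rose from 4 to 43 counts. TFRC, the transferrin receptor, which dividing cells of many types carry, fell from 327 and 406 to 146 and 172 CPM (log2 fold change -1.21, SE 0.119, adjusted p = 4.84e-09). KLF1, the erythroid factor, fell by 0.94, a call lost with DESeq2 (adjusted p = 0.0747), without DMSO replicate 1 (0.0849) and without replicate 1 of both agents (0.0788). Of 13 markers of T and NK cells 3 could be tested, 1 called higher and 1 lower, and CD3D, CD3E and CD3G had 0 counts. CD2 rose from 11 to 172 counts, and TRAC, the constant part of the T cell receptor alpha chain, fell from 26 to 4 counts. NKG7, at 91.7 CPM with DMSO and 106 with both agents, was not called, except higher in the fit on protein-coding genes alone (0.26, adjusted p = 0.0289). Of 9 B cell markers 6 were tested, 3 called higher, CD79A and EBF1 among them, and 1 lower (median 0.40). EBF1 lost its call with DESeq2 (adjusted p = 0.0531) and with library totals (adjusted p = 0.0503), among other alternatives. PAX5, the B cell factor, fell from 11.1 and 8.41 to 0.414 and 0.481 CPM (log2 fold change -4.45, SE 0.268, adjusted p = 5.43e-13). All 3 tested markers of eosinophils, basophils and mast cells were called lower, among them the tryptase gene TPSAB1 (27.1 to 10.8 CPM). Of 20 neuronal genes of the kind held down by REST and CoREST, 6 could be tested, 2 called higher and 1 lower (median 0.55). UNC13A, of synaptic vesicle release, lost its call in 7 alternatives, among them DESeq2 (adjusted p = 0.141) and leaving out DMSO replicate 1 (0.17), DMSO replicate 2 (0.0771) or replicate 1 of both agents (0.182), which leaves 1 called higher.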

How the data were processed

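Total RNA of 8 U-937 libraries was measured, 2 in each of 4 groups, taken by their labels. Per the submitters' processing notes, Trimmomatic, STAR, RSEM, deepTools and DESeq2 were used with hg38; the annotation release and the use of strand in counting are not given in the sources used here. The deposited table holds the authors' estimated counts (expected counts of RSEM), of which 20.2% of the positive ones were not whole; they were rounded. The authors' single-library files give the TPM values. The authors' deposited comparison table gives log2 fold changes and adjusted p-values.

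Gene coordinates and types came from GENCODE 44 (GRCh38), which held 60261 of the 60603 identifiers. The main test was edgeR 4.0.16 (R 4.3.3) with filterByExpr, TMM factors and the robust quasi-likelihood fit over the 8 libraries (limma 3.58.1 loaded with it), and Benjamini-Hochberg adjustment at 0.05 over 17717 genes. The fit had 4 residual degrees of freedom. It was also run on simulated counts with known changes in a small set of genes, far fewer than were called here. That run cannot tell how the fit behaves when most genes move. Each SE was taken from the F statistic and the log2 fold change without shrinkage. Where a group had 0 counts, the fold is a lower bound against 3 counts over the group; where it had 1 to 3, a ratio with an exact 95% interval is given. Intervals and floors cover counting error only.

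The genes named were, among called protein-coding genes with non-overlapping groups, the 12 largest rises and 12 largest falls at 5 CPM or more over the 4 libraries. To these were added the 10 largest gains and losses in TPM, the 3 largest rises and falls of long noncoding RNAs, and up to 2 rises, 2 falls and the most abundant member of each of 48 gene lists; further list members shown as examples were chosen after their values were seen. A few genes that the rule names are not reported here. The comparison, the members and the lists were chosen with earlier results of these data known. Alternatives were the 4 libraries alone, a replicate block, DESeq2 1.42.0, RLE factors, library totals, no low-count filter, a GC trend removed, protein-coding genes alone (added after seeing the data) and leaving out each library.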

Additional observations from a re-analysis of the deposited data

How the results depend on the processing

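All 4 counts of genes called stayed within 1.5 times their main value in the alternatives run, 16 for 3 of them and 15 for the count beyond a fold of 2, for which DESeq2 was not run. For both agents against DMSO, 11570 genes were called in the main fit, 10290 with DESeq2, 11300 with the 4 libraries alone and 11402 with library totals, and from 10426 to 11878 when 1 library was left out. Library totals moved the median log2 fold change of all genes from 0.03 to -0.09 and the split to 5036 higher and 6366 lower. The fit on protein-coding genes alone gave 4729 higher and 4744 lower. Beyond a fold of 2, 4127 genes were called, between 3287 (protein-coding genes alone) and 4274 (a library left out).

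With a replicate block, 11365 genes were called against DMSO, 4060 beyond a fold of 2, 8090 against ATRA alone and 10468 against Corin alone. The replicate numbers were not treated as pairs: the correlation of replicate differences over 9445 genes was 0.414 between DMSO and both agents, but -0.443 between Corin and both agents and -0.318 between ATRA and Corin. Of 203 genes followed, 195 were called; 12 lost the call in at least 1 alternative, 5 gained it and 0 reversed. Those that lost it were RPL7, EGR1, ITGA4, TNFSF13B, PSMB8, HOXA9, NDUFA4, ENO1, MVK, KLF1, EBF1 and UNC13A, and those that gained it NCOR1, ZEB2, CDKN1B, MDM2 and NKG7. Of 48 list counts 4 moved by over 1.5 times, all in lists with few calls: cholesterol synthesis, erythroid, T and NK cell, and neuronal genes. Each group has 2 libraries, which limits the estimate of spread, and genes removed by the low-count filter have no test.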

Other observations

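Gene families were also taken by the stem of their symbols, after values had been seen, and are given as descriptions beside the 33.1% and 32.2% of all genes called higher and lower. Several had calls in both directions, such as the ABC transporters (9 higher and 12 lower of 25), the TRIM proteins (18 higher and 10 lower of 43) and the zinc finger genes named ZNF (157 higher and 81 lower of 371), and the families below are those with mostly one-sided calls and some exceptions. Of 16 genes of the NOD-like receptors and the inflammasome, 15 were called higher and 1 lower (median log2 fold change 1.84). NLRC4, which joins the sensors of flagellin in an inflammasome, stood at 3.38 and 3.43 CPM with DMSO, 43.5 and 40.3 with ATRA, 13.2 and 10.4 with Corin and 105 and 126 with both agents (log2 fold change 5.08, SE 0.146, adjusted p = 9.23e-19). NLRP12 stood at 3.41 and 2.95, 6.95 and 5.65, 7.37 and 6.47 and 24.2 and 22.7 CPM in the same order. For both genes the pair with both agents lay above all other libraries. All 5 guanylate-binding proteins were called higher (median 5.10), and in this family GBP2 and GBP5 had different patterns. GBP2 was at 19.6 and 22.6 CPM with ATRA alone and 72.1 and 86.5 with both agents (difference 1.91, adjusted p = 3.27e-12), whereas GBP5 was at 133 and 149 and 81.6 and 102 CPM (difference -0.62, adjusted p = 3.56e-05). Of 7 APOBEC3 cytidine deaminases 6 were called higher and 1, APOBEC3B, lower (40.7 and 39.5 to 13.0 and 13.4 CPM; log2 fold change -1.60, SE 0.111, adjusted p = 7.97e-12).

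Of 18 cytosolic aminoacyl-tRNA synthetases 15 were called lower and 1 higher (median -1.16). GARS1, the glycyl-tRNA synthetase, stood at 434 and 470 CPM with DMSO, 144 and 143 with ATRA, 342 and 295 with Corin and 90.2 and 105 with both agents (log2 fold change -2.21, SE 0.111, adjusted p = 2e-14), and CARS1, the cysteinyl enzyme, was not called between both agents and ATRA alone (-0.07, adjusted p = 0.602). Of 78 mitochondrial ribosomal proteins 60 were called lower and 5 higher (median -0.75), while of 82 cytosolic ones 22 were called lower, 10 higher and 50 not called (median -0.11). Ribosomal protein genes can share reads with pseudogenes. Of 22 nucleoporins 20 were called lower and 0 higher (median -1.07), with NUP155 going from 228 and 237 to 45.7 and 49.5 CPM (log2 fold change -2.29, SE 0.101, adjusted p = 1.9e-15). Of 19 importins and exportins 17 were called lower (median -1.01), with XPO5, which exports microRNA precursors, going from 357 and 391 to 91.3 and 99.5 CPM (log2 fold change -1.97, SE 0.102, adjusted p = 3.69e-14). Of 17 subunits of the vacuolar proton pump, which acidifies lysosomes, 11 were called higher and 3 lower (median 0.65).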
